A study of Mus musculus with 10 samples.

Results

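The lesional change of gene expression was compared between 2 sets of transgenic mice. Within each mouse the change was taken as lesional (involved) minus uninvolved skin, and the interaction tested here is that change in mice labelled IL-17C+KO minus that change in mice labelled IL-17C+. All 10 libraries of the series enter this comparison, 2 from each of 5 mice, and all genes were used. Of 24358 gene symbols, 16083 passed a filter on low counts and were tested.

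The 3 mice labelled IL-17C+ are numbered 2237, 2275 and 2296, and the 2 labelled IL-17C+KO are numbered 2392 and 2465. All 5 are C57Bl/6 mice with an interleukin-17C transgene, and according to the series title the IL-17C+KO mice also lack interleukin-6 (Il6). Each mouse gave 1 full-thickness dorsal biopsy of a lesion and 1 of uninvolved skin at an age of 10 or 14 weeks. The labels do not say which mouse had which age, so age and genotype label cannot be told apart. The promoter behind the transgene is likewise not stated in the sources at hand. No mouse without the transgene is among the libraries, so every uninvolved biopsy is also transgenic skin.

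IL-17C is an epithelial cytokine of the interleukin-17 family that acts on keratinocytes, which answer with chemokines, antimicrobial proteins and growth. IL-6 is released by keratinocytes, fibroblasts and myeloid cells and signals through the shared receptor chain gp130 to STAT3, as do its relatives oncostatin M, leukemia inhibitory factor and IL-11. Psoriasis-like plaques combine thickened epidermis with neutrophils, monocytes and remodelled dermis, and the chemokines that recruit these leukocytes are coded in clusters of neighbouring genes.

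The libraries held 21056850 to 31072491 counts, so that the limit a count of 0 allows (3 counts) lay between 0.0965 and 0.142 CPM (counts scaled to a common library size), for counting error only. Levels below are CPM after scaling, and a lesional difference is the log2 CPM of the lesion minus that of the uninvolved biopsy of the same mouse. Il6 went against its label. In uninvolved skin it had 9, 4 and 6 counts in mice 2237, 2275 and 2296, and 71 and 55 counts in mice 2392 and 2465. In lesions it had 26, 18 and 69 counts in the first 3 mice and 315 and 300 in the other two. The libraries labelled IL-17C+KO thus held the higher Il6 level in both kinds of skin, and whether the counted reads fall in a deleted part of the gene cannot be seen from gene counts. An exchange of the labels between the 2 sets of mice was not tested, and it would turn the sign of every interaction given here. The lesional differences of Il6 were 0.94, 1.71 and 2.89 in the IL-17C+ mice against 1.88 and 2.62 in the IL-17C+KO mice, and these ranges overlap. The interaction was 0.17 with a 95% interval from -1.87 to 2.21, and it was -0.42 without mouse 2237.

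Il17c itself, whose gene counts cannot separate a transgene from the mouse gene, stood at 15175, 1416 and 5396 CPM in uninvolved skin of mice 2237, 2275 and 2296 and at 1901 and 535 CPM in mice 2392 and 2465. Lesions held 10596, 10855 and 12470 CPM under the first label and 2347 and 10881 CPM under the second. Mouse 2392 was the lowest in lesional skin and mouse 2237 the highest in uninvolved skin. The lesional differences ran from -0.52 to 2.94 under the first label and were 0.30 and 4.35 under the second, with an interaction of 1.12 (95% interval -2.91 to 5.14).

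Across all genes no interaction passed the threshold. With edgeR's quasi-likelihood test and Benjamini-Hochberg adjustment, 0 of 16083 genes (0%) were called, and the smallest adjusted p was 1. Without adjustment, 188 genes (1.17%) had a p under 0.05. Of them, 92 (0.572%) had an interaction above 0 and 96 (0.597%) one below 0. An interaction below 0 can be a smaller rise or a deeper fall in lesions under IL-17C+KO. Csrp3, for example, had a fitted lesional change of -6.02 under IL-17C+KO and of -3.69 under IL-17C+. Limma-voom called 0 genes and DESeq2 called 6, namely Ccl2, Ccl7, Cxcl5 and Cxcl1 with an interaction above 0 and Csrp3 and Tceal7 with one below 0. Half-widths of the 95% intervals had a median of 1.31 on the log2 scale. Among 13445 genes with a mean of at least 2 CPM, the interval lay within 1 log2 unit of 0 for 1140 genes (8.479%) and within 2 units for 10001 (74.38%), so a difference of 2-fold could be bounded for few genes. The median interaction over all genes was -0.00042.

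Likeness between mice did not follow the labels. Over the 16083 genes, the lesional differences of mouse 2275 (IL-17C+) and mouse 2465 (IL-17C+KO) had the highest Pearson correlation of the 10 pairs, 0.835. The 2 mice labelled IL-17C+KO correlated at 0.554, and mouse 2237 correlated with the other 4 at -0.129 to 0.143. These are correlations across genes, which are not independent, and share the scaling of all libraries. The size of the response also differed, with a standard deviation of the lesional differences of 0.836, 1.29 and 0.87 in mice 2237, 2275 and 2296 and of 0.867 and 1.56 in mice 2392 and 2465. Mouse 2465 had 954 genes above a lesional difference of 2, whereas mouse 2237 had 203.

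**Figure D1:**
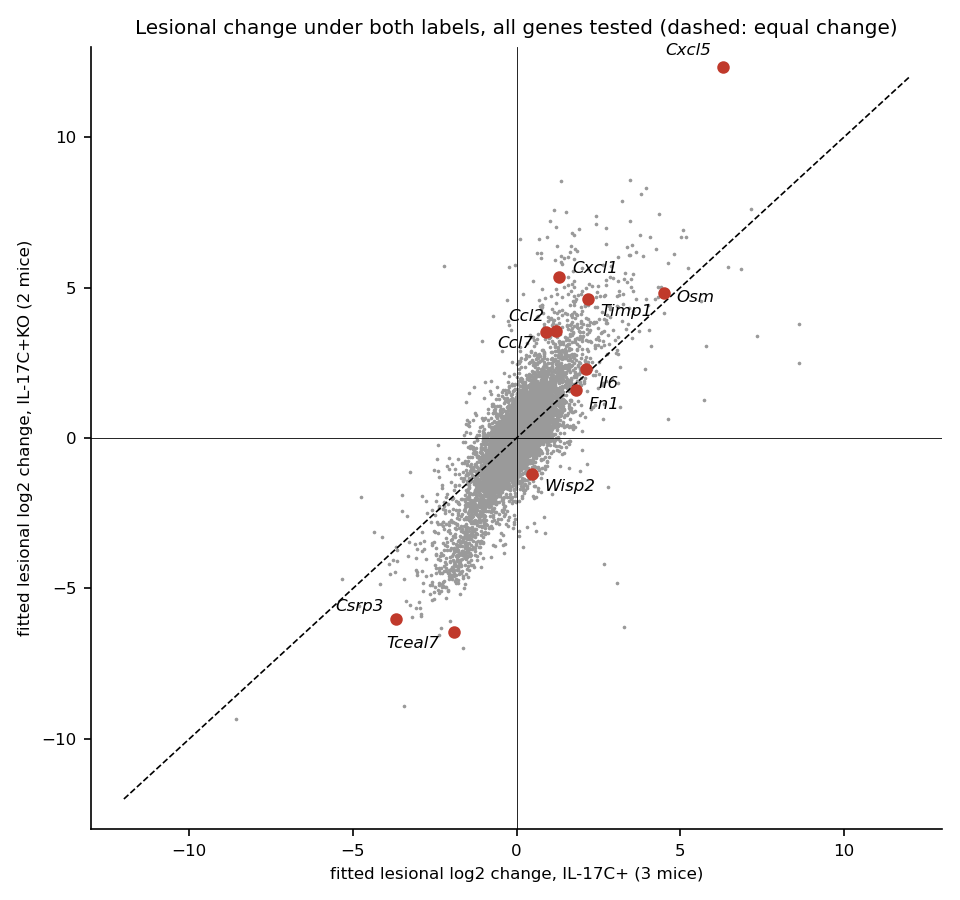
Fitted lesional log2 change in the 3 mice labelled IL-17C+ (x axis) against that in the 2 mice labelled IL-17C+KO (y axis) for the 16083 genes tested, one grey point per gene, with 11 genes named and the dashed line marking equal change. Cxcl5, Cxcl1, Ccl2, Ccl7 and Timp1 lie above the line, Csrp3, Tceal7 and Wisp2 lie below it, and Osm, Il6 and Fn1 lie close to it.

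The lesional change on which the interaction builds was first tested as the mean over both labels, weighted equally. Here 21 genes passed, 16 higher in lesions (0.0995% of the genes tested) and 5 lower (0.0311%). DESeq2 called 2033 genes and limma-voom 117 for the same contrast, and edgeR called 303, 14, 1, 1 and 0 genes without mouse 2237, 2275, 2296, 2392 and 2465. All 21 had 1 direction in 5 of 5 mice, which held for 3033 of the 16083 genes (18.9%), 9.13% higher in lesions and 9.73% lower. Among the 16 that rose, the lesional differences of both IL-17C+KO mice lay above those of all 3 IL-17C+ mice for 12. Among the 5 that fell, both lay below for 5. Over all genes tested the corresponding shares were 5.45% above (877 genes) and 5.03% below (809 genes). The mean and the interaction come from the same libraries, so these counts are a description.

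The 4 remaining genes rose in lesions with overlapping labels. Oncostatin M (Osm), a gp130 cytokine of neutrophils and macrophages, had lesional differences of 2.40, 4.41 and 4.70 in mice 2237, 2275 and 2296 and of 4.32 and 4.99 in mice 2392 and 2465. The computed 95% interval of its interaction of 0.31 was wide, from -4.12 to 4.74. The standard errors of its fitted lesional changes were smaller, at 0.54 under IL-17C+ and 0.59 under IL-17C+KO, beside 1.85 for the interaction. Fibronectin (Fn1), a protein of the provisional wound matrix, had 1.80, 1.91 and 1.72 against 1.45 and 1.76. Its interaction was -0.21 with a 95% interval from -1.07 to 0.66. Klk14, an epidermal serine protease, had an interaction of -0.20 (95% interval -2.02 to 1.62). For Brinp3 the computed interval was -7.76 to 8.64, beside standard errors of 0.83 (IL-17C+) and 1.16 (IL-17C+KO) for its fitted lesional changes. Its interaction of 0.44 turned negative in 3 of the other settings.

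Neutrophil-attracting chemokines stood highest among the lists in median interaction. These are ligands of the receptor CXCR2, apart from platelet factor 4 (Pf4). The lesional differences of both IL-17C+KO mice lay above those of all IL-17C+ mice for 5 of the 6 tested members (83.3%), against 5.45% of all genes. Their median interaction was 2.58, beside -0.00042 over all genes, and none of the 6 was called. Over the list, the summed level in lesions was 32.7, 38.2 and 266 CPM in mice 2237, 2275 and 2296, against 385 and 820 CPM in mice 2392 and 2465. In uninvolved skin the 5 sums lay between 27.9 and 42.4 CPM.

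Cxcl1, Cxcl2 and Cxcl3 are printed because they lie in the same cluster on chromosome 5, have an entry in the promoter table used here and were higher in lesions in all 5 mice. Each sequence gives the 120 bases before the RefSeq transcription start (GRCm38.p6, plus strand), at chr5:90891125-90891244, chr5:90903779-90903898 and chr5:90785981-90786100 in that order, with the match to the NF-kB consensus in capitals.
Cxcl1: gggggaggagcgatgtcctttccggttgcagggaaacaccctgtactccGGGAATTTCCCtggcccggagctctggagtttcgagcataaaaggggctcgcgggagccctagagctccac
Cxcl2: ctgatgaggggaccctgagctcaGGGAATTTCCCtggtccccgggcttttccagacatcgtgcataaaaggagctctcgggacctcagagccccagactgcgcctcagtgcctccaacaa
Cxcl3: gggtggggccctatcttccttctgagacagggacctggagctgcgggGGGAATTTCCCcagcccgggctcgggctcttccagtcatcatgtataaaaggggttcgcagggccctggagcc

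The same letters GGGAATTTCCC stood in all 3 promoters, beginning 71, 97 and 73 bases before the start of Cxcl1, Cxcl2 and Cxcl3. NF-kB is a transcription factor of cytokine signalling. The run holds 2 overlapping matches, 1 on each strand. Searched on both strands over a window of 250 bases before to 50 after the start, the NF-kB consensus was found in 1480 of 32851 RefSeq mouse promoters (4.51%). No match to an AP-1 motif (TGANTCA, in 7.81% of promoters), a STAT motif (TTCNNNGAA, 8.3%) or a C/EBP motif (TTGCNNAA, 10.8%) was found in these 3 windows. A match describes letters and does not show binding.

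Cxcl1 (chr5:90891241-90893115, plus strand, GRCm38, GENCODE M21, as for the other genes below) is a main neutrophil chemokine of activated keratinocytes and stroma. It stood at 2.43, 3.23 and 9.02 CPM in uninvolved skin of mice 2237, 2275 and 2296 and at 8.81 and 1.92 CPM in mice 2392 and 2465. In lesions it stood at 5.21, 8.87 and 23.2 CPM under the first label and at 116 and 260 CPM under the second. The uninvolved levels overlapped and the lesional ones did not. Lesional differences were 1.07, 1.44 and 1.36 against 3.70 and 7.02, and the interaction was 4.05 ± 1.0 (SE, 3 and 2 mice; unadjusted p = 0.00557, adjusted p = 1 by edgeR). It was 2.41 without mouse 2465.

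Cxcl5 (chr5:90759360-90761624) codes for another CXCR2 ligand of epithelial cells. It had 2, 1 and 3 counts in uninvolved skin of mice 2237, 2275 and 2296 and 0 and 2 counts in mice 2392 and 2465. Lesions held 77, 81 and 621 counts under the first label and 2184 and 7954 counts under the second. As a ratio of counts scaled to library size, the lesion of mouse 2237 was 32.7 times as high as its uninvolved skin (exact 95% interval 8.75 to 275). In mouse 2275 the ratio was 84.1 (14.7 to 3364), and in mouse 2296 it was 166 (56.5 to 806). Mouse 2392, with 0 uninvolved counts, has no ratio, and its exact interval begins at 550. Mouse 2465 had a ratio of 4877 (1350 to 40280). The intervals of the 3 IL-17C+ mice overlap one another, the interval of mouse 2465 overlaps that of mouse 2275, and that of mouse 2392 overlaps those of mice 2275 and 2296. Cxcl5 rose in lesions on average (9.33 ± 0.48 on the log2 scale, adjusted p = 0.00786 by edgeR). The fitted interaction, 6.01 ± 1.08, depends on how such low counts are moderated.

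For Cxcl2 the lesional differences were 0.88, 4.32 and 5.03 in mice 2237, 2275 and 2296, against 5.37 and 8.03 in mice 2392 and 2465. Cxcl3 had 2.81, 4.57 and 5.22 against 5.76 and 7.28. Mouse 2237 was the lowest in both genes, and mouse 2296 came close to mouse 2392. Cxcl3 was among the genes that rose on average (mean lesional change 6.00 ± 0.46, adjusted p = 0.023 by edgeR), while its interaction of 1.84 had an interval that reached from -0.29 to 3.96. Ppbp, a platelet-borne CXCR2 ligand, had an interaction of 2.18 ± 1.0 at a mean of 0.892 CPM. Pf4, a platelet and macrophage chemokine, overlapped between the labels, with lesional differences of -0.59, -0.80 and 1.42 against 2.11 and 0.12. Cxcl15 did not pass the filter. These genes are close copies, and the handling of reads shared by several of them is not known from the labels.

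**Figure D2:**
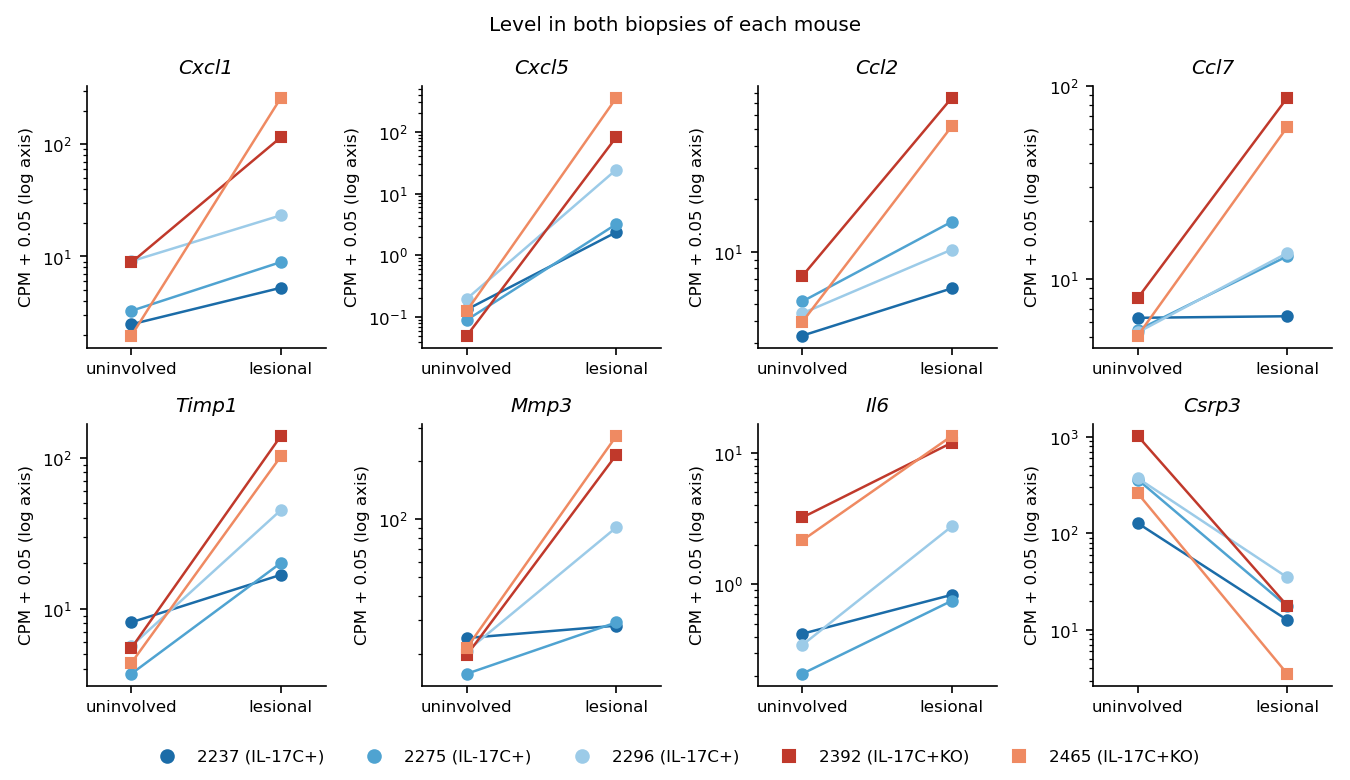
CPM plus 0.05 on log axes in the uninvolved and the lesional biopsy of each mouse for 8 genes, with circles for IL-17C+ and squares for IL-17C+KO and a line joining the biopsies of 1 mouse. In lesions both IL-17C+KO mice lie above all IL-17C+ mice for Cxcl1, Cxcl5, Ccl2, Ccl7, Timp1, Mmp3 and Il6; for Il6 they also do so in uninvolved skin, and Csrp3 falls in every mouse.

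Genes of neutrophils themselves formed a separate list. The median interaction was 1.35, or 0.87 without mouse 2237 and 2.03 without mouse 2296. Of 18 tested genes of the neutrophil list, 3 (16.7%) lay above in both IL-17C+KO mice, against 5.45% of all genes. Among these 3 were Clec4e, a receptor for necrotic cells and mycobacterial glycolipid, and Fpr2, a formyl peptide receptor. Clec4e had lesional differences of -0.01, 2.73 and 4.75 in mice 2237, 2275 and 2296 and of 5.60 and 5.55 in mice 2392 and 2465. Csf3r, the receptor for granulocyte colony-stimulating factor, had 0.69, 1.93 and 3.40 against 3.12 and 3.58, so mouse 2296 lay between the IL-17C+KO mice. Summed over the list, lesions held 2307, 2415 and 13190 CPM under the first label and 4958 and 6603 CPM under the second, and the highest value belonged to an IL-17C+ mouse. Uninvolved skin held 2204, 236 and 2583 CPM against 893 and 232 CPM. The part of neutrophil number in the chemokine values was not tested. In full-thickness skin, more cells of a type and more RNA per cell cannot be told apart.

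Chemokines for monocytes and eosinophils split into 2 patterns. Ccl2 and Ccl7, adjacent on chromosome 11 and both ligands of the monocyte receptor CCR2, had larger lesional differences in both IL-17C+KO mice. Ccl8, Ccl6 and Ccl9 instead differed between those 2 mice. Of 11 tested members, 3 (27.3%) lay above in both IL-17C+KO mice and 0 below, against 5.45% and 5.03% of all genes. The list's median interaction was 0.98, or -0.33 without mouse 2392.

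Ccl2 (chr11:82035571-82037453) had the smallest interaction p of the named genes. It stood at 3.26, 5.14 and 4.39 CPM in uninvolved skin of mice 2237, 2275 and 2296 and at 7.20 and 3.91 CPM in mice 2392 and 2465. In lesions the levels were 6.11, 14.7 and 10.2 CPM against 75.3 and 51.8 CPM. Lesions of the 2 labels did not overlap, whereas the uninvolved levels did, and Ccl2 rose in lesions on average (2.38 ± 0.21, adjusted p = 0.0368 by edgeR). The lesional differences were 0.89, 1.51 and 1.2 against 3.37 and 3.70, with an interaction of 2.34 ± 0.40 (unadjusted p = 0.000803). The adjusted p was 1 by edgeR, 0.00599 by DESeq2 and 0.941 to 1 under the other alternatives, and leaving out each mouse in turn gave values from 2.17 to 2.50.

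Ccl7 (chr11:82045712-82047525) followed the same order. Its uninvolved levels were 6.23, 5.38 and 5.23 CPM under IL-17C+ and 7.91 and 5.03 CPM under IL-17C+KO. Its lesional levels were 6.35, 13.1 and 13.6 CPM against 87.0 and 61.3 CPM. Mouse 2237 had a lesional difference of only 0.03, and the interaction was 2.63 ± 0.52. Ccl4, a chemokine of activated myeloid and T cells, also lay above in both IL-17C+KO mice, but with 2.33 and 5.13 in mice 2275 and 2296 against 6.54 and 5.94 and with -1.24 in mouse 2237. The interval of its interaction of 4.69 ± 2.04 contained 0.

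Ccl11 and Ccl12, which lie between Ccl7 and Ccl8 in the same cluster, overlapped between the labels. Ccl12 had lesional differences of -0.44, 0.71 and 1.34 in the IL-17C+ mice and of 2.51 and 1.06 in mice 2392 and 2465. For Ccl11 (eotaxin) they were -0.14, 0.21 and 0.16 against 0.76 and -0.85. Ccl8 levels in lesions were 122, 59.1 and 165 CPM against 230 and 63.9 CPM, and its lesional difference was 2.65 in mouse 2392 and -0.37 in mouse 2465. The 2 mice of the IL-17C+KO label thus pointed in different directions for Ccl8. They did so again for Ccl6, at 2.29 and -1.43, and for Ccl9, at 2.05 and -0.75, both constitutive macrophage chemokines. Among IL-17C+ mice, mouse 2296 was positive for Ccl6, Ccl8 and Ccl9 (1.34, 1.42 and 0.99) and mice 2237 and 2275 were negative. Ccl3, Ccl5 and Ccl24 had interactions of 0.88, -0.16 and -0.07, and their ranges overlapped.

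The macrophage list moved with this split. Its median lesional difference was 1.87 in mouse 2392 and 1.03 in mouse 2296, against 0.02 in mouse 2465, 0.34 in mouse 2237 and -0.14 in mouse 2275. Summed over the list, the lesion of mouse 2392 held 3017 CPM and that of mouse 2465 held 1570 CPM. The part of macrophage number in the values of Ccl6, Ccl8 and Ccl9 was not tested. Only Marco and Msr1, both scavenger receptors of macrophages, lay above in both IL-17C+KO mice among its 26 tested members. Their share of 7.69% stands against 5.45% of all genes, and Marco had a mean of 0.43 CPM.

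Chemokines of lymphocyte traffic and resting skin mostly overlapped between the labels. Of 15 tested members, 1 lay above in both IL-17C+KO mice (Ccl19, a CCR7 ligand, interaction 1.83 ± 0.63) and 1 below (Ccl28, a mucosal chemokine, -1.16 ± 0.71). The median interaction of the list was -0.17. Ccl19 had lesional differences of -0.53, 0.42 and 0.39 against 2.76 and 1.07, and its interaction was 0.98 without mouse 2392. The other 13 overlapped between the labels. For the CCR4 ligands Ccl17 and Ccl22 the interactions were 0.41 and 0.37. Ccl20, a CCR6 ligand, had 1.83 ± 1.52, and it was -0.39 without mouse 2465, the only mouse with a large lesional difference (3.79). Ccl25 and the skin chemokine Ccl27a had -0.18 and -1.22. The interferon-induced Cxcl9 and Cxcl10 had -0.36 and -0.34. Among tissue chemokines, Cxcl12, Cxcl14, Cxcl16 and Cx3cl1 had 0.50, -0.17, -0.10 and -0.50. Cxcl13, a B cell chemokine, had 1.34 in mouse 2392 and -4.25 in mouse 2465, and Xcl1 had an interaction of -1.78 ± 1.27 at a mean of 0.74 CPM. Ccl21a and Cxcl11 were not tested. Among 22 chemokine receptor genes, 2 lay above (9.09%) and 1 below (4.55%), against 5.45% and 5.03% of all genes. Ccr7, the receptor of Ccl19 on migrating dendritic cells and naive T cells, had 0.88, 0.31 and 0.45 against 1.32 and 2.09.

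Ligands of the IL-6 family followed no common order. Of 8 tested ligands, 2 (25.0%) lay above in both IL-17C+KO mice, Lif and Il11, against 5.45% of all genes. The list's median interaction was 0.24, or -0.21 without mouse 2237. Il27 and Il31 did not pass the filter on low counts. Leukemia inhibitory factor (Lif) stood at 3.67, 2.55 and 8.28 CPM in uninvolved skin of mice 2237, 2275 and 2296 and at 5.68 and 2.03 CPM in mice 2392 and 2465. Lesional levels were 9.21, 11.2 and 6.00 CPM against 24.8 and 49.8 CPM. Lesional Lif was thus higher in both IL-17C+KO mice, but the lesional differences of mouse 2275 (2.10) and mouse 2392 (2.11) nearly met. The interaction of Lif was 2.34 ± 1.06, or 1.12 without mouse 2465, and that of Il11 was 1.35 ± 0.69. Clcf1, a ligand of the CNTF receptor, had 0.16, 1.23 and 0.43 against 0.94 and 4.39, so that only mouse 2465 stood apart. For Osm, Ctf1, Cntf and Ebi3 the interactions were 0.31, -0.63, -0.52 and -0.20.

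Receptors and signalling genes downstream of gp130 overlapped, with 1 exception above among 19 (5.26%), against 5.45% of all genes. Socs3, the STAT3-induced inhibitor of gp130 signalling, had lesional differences of 1.27, -0.12 and 0.97 in mice 2237, 2275 and 2296 and of 1.28 and 2.90 in mice 2392 and 2465. Mouse 2237 and mouse 2392 were almost equal. The interaction of Socs3 was 1.38 ± 0.66, and the median of the list was 0.17.

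Other cytokines were described by family. Il19, a keratinocyte cytokine of the IL-20 group, rose in lesions on average (mean lesional change 5.34 ± 0.55, adjusted p = 0.0438 by edgeR). It had 4, 3 and 12 counts in uninvolved skin of mice 2237, 2275 and 2296 and 3 and 1 counts in mice 2392 and 2465. Its lesional counts were 55, 16 and 280 against 200 and 495. The count ratios were 11.7 (exact 95% interval 4.31 to 44.4), 5.54 (1.59 to 29.7) and 18.7 (10.5 to 36.6) in mice 2237, 2275 and 2296. In mice 2392 and 2465 they were 62.0 (20.9 to 303) and 607 (108 to 24020), and the interval of mouse 2392 overlaps all 3 of the other label. The lesional differences were 2.83, 1.82 and 4.04 against 5.16 and 7.55, with an interaction of 3.76 ± 1.09, or 2.31 without mouse 2465. Il24, its neighbour in the genome, had 1.63, 3.37 and 2.38 against 3.43 and 8.07, where mice 2275 and 2392 were close, and its interaction of 2.83 was 0.66 without mouse 2465. With Il10 (interaction 1.67 ± 0.90), 3 of 10 tested members of the family (30.0%) lay above in both IL-17C+KO mice, against 5.45% of all genes. The receptors overlapped, and the median of the list was 0.20.

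Granulocyte colony-stimulating factor (Csf3), which drives neutrophil production, stood at 0.00, 0.159 and 0.444 CPM in uninvolved skin of the IL-17C+ mice and at 1.25 and 0.115 CPM in the IL-17C+KO mice. In lesions it stood at 0.12, 1.09 and 6.51 CPM against 37.1 and 29.1 CPM. The lesional levels did not overlap, and the interaction was 2.62 ± 1.12, or 1.43 without mouse 2465. Il4ra, the shared receptor chain for IL-4 and IL-13, had 0.88, 0.44 and 0.62 against 1.77 and 1.51 (interaction 0.99 ± 0.35), and Il13ra2, a decoy receptor for IL-13, had 1.86 ± 0.87. In all, 4 of 17 tested members (23.5%) of this list lay above, Crlf2 being the last of them, against 5.45% of all genes. The median interaction of the list was 0.29. Crlf2, chosen for naming after its values were seen, had an interaction of only 0.22.

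The IL-1 family overlapped with 2 exceptions among 21, 1 above and 1 below (4.76% each, against 5.45% and 5.03% of all genes). The IL-1 receptor Il1r1 had lesional differences of 0.15, 0.03 and 0.53 in the IL-17C+ mice and of 1.85 and 1.42 in the IL-17C+KO mice, with an interaction of 1.40 ± 0.37 (unadjusted p = 0.00791, adjusted p = 1 by edgeR). Its lesional levels were 47.4, 51.5 and 67.1 CPM against 149 and 132 CPM, at uninvolved levels of 41.3 to 50.5 CPM in all 5 mice. Il1f10, coding for IL-38, lay below (-1.24 ± 0.59). In the IL-17 and IL-23 axis, 0 of 15 members lay above and 2 below (13.3%), against 5.45% and 5.03% of all genes. These 2, Il12rb1 and Il17rb, had interactions of -1.80 ± 0.90 and -0.65 ± 0.57. In the TNF and NF-kB list 1 of 18 lay above (5.56%), close to the 5.45% of all genes, and the median interaction was 0.05.

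Antimicrobial and acute phase genes had a median interaction of 1.70, with 25 of 26 above 0, where over all genes 8035 of 16083 were above 0. The median was 0.82 without mouse 2237 and 0.91 without mouse 2465. Both IL-17C+KO mice lay above all IL-17C+ mice for 5 (19.2%), against 5.45% of all genes. They were Saa1, Saa2, Saa3, Chil3 and Lcn2, of which Lcn2 was added for naming after its values were seen. Serum amyloid A3 (Saa3), an acute phase protein made locally in skin, stood at 12.1, 1.51 and 12.3 CPM in uninvolved skin of mice 2237, 2275 and 2296 and at 3.53 and 4.53 CPM in mice 2392 and 2465. Lesions held 21.1, 25.4 and 942 CPM against 979 and 1257 CPM. Mouse 2296 was close to the IL-17C+KO mice in the lesion and higher than both in uninvolved skin, with a lesional difference of 6.25 against 8.08 and 8.09. The interaction of Saa3 was 4.32 ± 1.56, and 2.91 without mouse 2237.

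Saa1 had lesional differences of -0.22, 2.66 and 2.46 in the IL-17C+ mice against 5.88 and 4.16. Saa2 had 1.13, 3.00 and 2.21 against 7.37 and 3.03, and mice 2275 and 2465 nearly coincided. The Saa genes are close copies, so reads may be split among them. Chil3, a chitinase-like protein of myeloid cells, had an interaction of 2.33 ± 0.78, and Lcn2 (lipocalin 2), which binds bacterial siderophores, had 1.53 ± 0.62. Calprotectin and the beta-defensins of the list overlapped between the labels.

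Proteases and matrix remodelling genes counted 7 of 27 (25.9%) above in both IL-17C+KO mice and 0 below, against 5.45% and 5.03% of all genes. Their median interaction was 0.68. That median was -0.03 without mouse 2465. The 4 with the smallest p were Mmp3, Timp1, Mmp19 and Ptgs2. Stromelysin-1 (Mmp3), a metalloproteinase of fibroblasts, stood at 24.1, 15.7 and 20.6 CPM in uninvolved skin of mice 2237, 2275 and 2296 and at 19.7 and 21.5 CPM in mice 2392 and 2465. Its lesional levels were 27.9, 29.0 and 90.7 CPM against 216 and 271 CPM. The uninvolved levels were alike, the lesional ones did not overlap, and the interaction was 2.49 ± 0.61.

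Timp1, an inhibitor of metalloproteinases, rose in lesions on average (3.39 ± 0.34, adjusted p = 0.0438 by edgeR). Its uninvolved levels were 8.09, 3.66 and 5.62 CPM against 5.45 and 4.34 CPM, and its lesional levels were 16.7, 20.1 and 45.0 CPM against 139 and 102 CPM. Lesional differences of 1.04, 2.43 and 2.98 stood against 4.66 and 4.53, with an interaction of 2.44 ± 0.62. Cyclooxygenase-2 (Ptgs2), which makes prostaglandins, had 0.54, 2.63 and 2.03 against 3.73 and 6.28, with an interaction of 3.27, or 2.00 without mouse 2465, and Mmp19 had 0.86, 0.88 and 0.48 against 1.92 and 2.40.

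Further genes with larger lesional differences under IL-17C+KO came from outside the lists. Tnfaip6 (TSG-6), a hyaluronan-binding protein induced by inflammation, had lesional levels of 16.5, 18.0 and 25.3 CPM in the IL-17C+ mice and of 120 and 110 CPM in the IL-17C+KO mice. Its uninvolved levels were 11.8, 10.6 and 12.2 CPM against 26.9 and 13.5 CPM, so the labels were separate in both kinds of skin and further apart in lesions. The interaction was 1.82 ± 0.43. Apelin (Apln), a vascular peptide, had the lower uninvolved level under IL-17C+KO (0.894 and 0.959 CPM against 1.77 to 2.56) and the higher lesional level (7.50 and 6.47 CPM against 1.75 to 3.81). Its interaction of 2.46 ± 0.56 therefore rests on both biopsies.

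Fgf23, known as a phosphate-regulating hormone of bone, rose in lesions on average (4.76 ± 0.33, adjusted p = 0.0175 by edgeR). It had 70, 18 and 95 lesional counts in mice 2237, 2275 and 2296, against 1491 and 243 in mice 2392 and 2465, over uninvolved counts of 4, 3 and 5 against 22 and 3. The count ratios were 14.9 (exact 95% interval 5.55 to 56.1), 6.23 (1.82 to 33.0) and 15.2 (6.30 to 47.95) in mice 2237, 2275 and 2296. In mice 2392 and 2465 they were 63.05 (41.5 to 101) and 99.3 (33.6 to 485), and both of these intervals overlap those of mice 2237 and 2296. The lesional differences were 3.16, 1.97 and 3.55 against 5.73 and 5.81. Slc39a14 (ZIP14), a zinc and iron importer of the acute phase, had 0.21, 1.03 and 0.63 against 2.01 and 2.90, with an interaction of 1.84 ± 0.46.

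**Figure D3:**
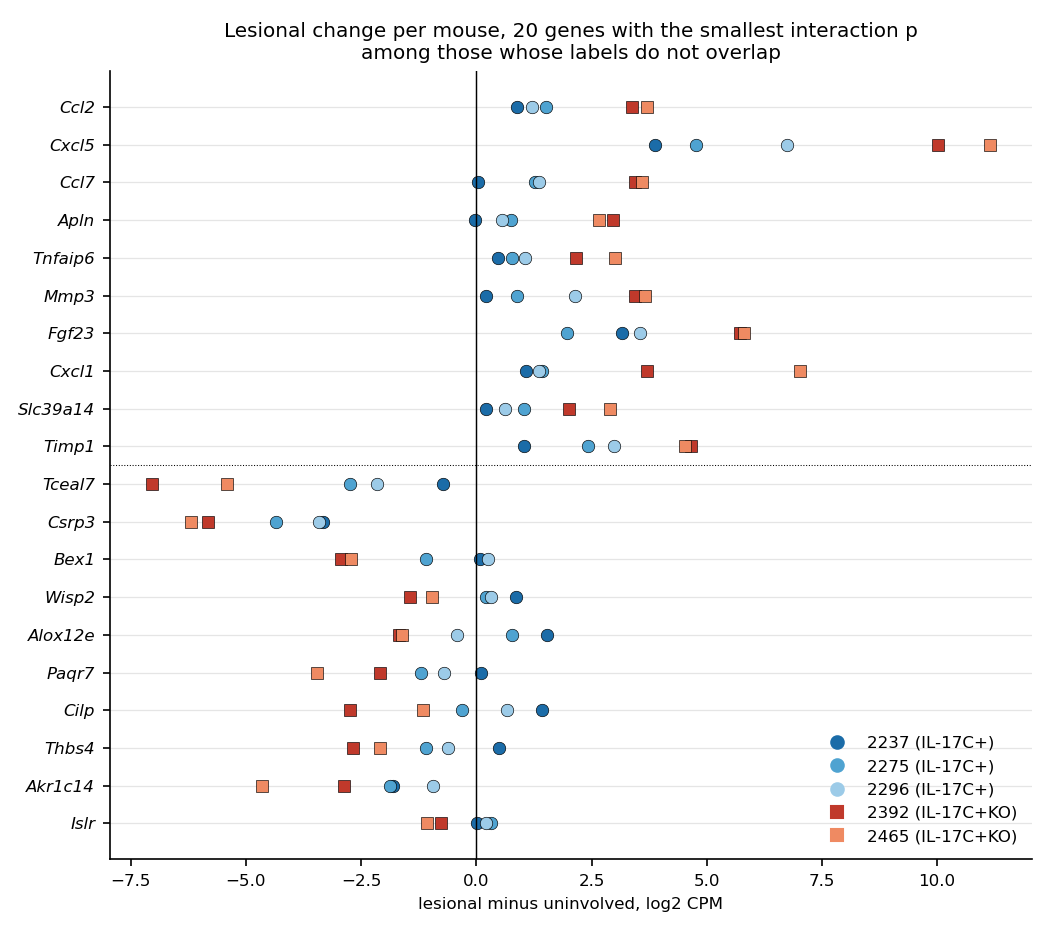
Lesional minus uninvolved log2 CPM of each mouse (x axis) for the 10 genes with the smallest interaction p in each direction among those whose labels do not overlap, circles for IL-17C+ and squares for IL-17C+KO. The genes were picked for this separation; the squares of Ccl2 stand at 3.37 and 3.70 and those of Tceal7 at -7.04 and -5.40.

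In the opposite direction, skeletal muscle genes formed the list with the lowest median. All 24 tested members had an interaction below 0, where 8048 of 16083 genes did, and 10 (41.7%) lay below in both IL-17C+KO mice, against 5.03% of all genes. The median interaction was -2.54, or -0.98 without mouse 2465. Median lesional differences were -0.14, -3.05 and -1.92 in mice 2237, 2275 and 2296, against -2.63 and -5.79 in mice 2392 and 2465, so mouse 2275 lay between the IL-17C+KO mice. Summed over the list, uninvolved skin held 9941, 53218 and 19990 CPM against 47809 and 74013 CPM, and lesions held 10314, 6288 and 4910 CPM against 7457 and 1547 CPM. Full-thickness dorsal biopsies can include the thin muscle layer under the skin. The part of muscle content in these values was not tested.

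Csrp3 (chr7:48830398-48848033), the muscle LIM protein, fell in lesions on average (-4.86 ± 0.28, adjusted p = 0.00786 by edgeR). It stood at 127, 359 and 371 CPM in uninvolved skin of mice 2237, 2275 and 2296 and at 1013 and 259 CPM in mice 2392 and 2465. In lesions the levels were 12.6, 17.5 and 35.0 CPM against 17.8 and 3.48 CPM. Levels overlapped in both kinds of skin, and only the differences within mice separated the labels (-3.32, -4.35 and -3.40 against -5.82 and -6.18; interaction -2.32 ± 0.47). Myoglobin (Mb) had -1.28, -3.71 and -0.59 against -4.42 and -5.21. Ankrd2 and Myoz2, sarcomere proteins outside the list, fell on average too, with interactions of -2.02 ± 0.79 and -2.31 ± 0.85.

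Schwann cell and nerve genes showed the same direction at a smaller size. Of 12 tested members, 6 (50%) lay below in both IL-17C+KO mice and 0 above, against 5.03% and 5.45% of all genes. The median interaction was -0.77. Periaxin (Prx), a protein of myelinating Schwann cells, had lesional differences of -0.02, -0.63 and -1.20 in mice 2237, 2275 and 2296 and of -1.43 and -2.07 in mice 2392 and 2465. Mice 2296 and 2392 were close. Prx and Ncmap, another myelin protein, had interactions of -1.13 ± 0.49 and -1.30 ± 0.52. Summed over the list, uninvolved skin held 268, 519 and 306 CPM against 586 and 875 CPM, and lesions held 270, 362 and 232 CPM against 361 and 299 CPM. The separation of the labels thus lay in uninvolved skin.

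Tceal7 (chrX:136214779-136226100) and Bex1 (chrX:136213972-136215513) are neighbours on the X chromosome whose annotated spans overlap on opposite strands. Tceal7 stood at 4.79, 27.3 and 18.9 CPM in uninvolved skin of mice 2237, 2275 and 2296 and at 40.2 and 27.8 CPM in mice 2392 and 2465. In lesions it stood at 2.89, 4.04 and 4.16 CPM against 0.226 and 0.58 CPM. Both biopsies separated the labels, in opposite directions, but in uninvolved skin mice 2275 and 2465 nearly coincided at 27.3 and 27.8 CPM. Tceal7 fell on average (-4.17 ± 0.46, adjusted p = 0.0458 by edgeR) with an interaction of -4.53 ± 0.86. Bex1 had lesional levels of 1.93, 3.62 and 3.77 CPM against 0.792 and 1.07 CPM and an interaction of -2.65 ± 0.63. Without a stated strand setting, reads of these 2 genes cannot be told apart where they overlap.

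Further genes with lower lesional differences under IL-17C+KO, either less positive or more negative, came from outside the lists. Cilp, a cartilage and matrix protein, stood at 44.9, 166 and 73.5 CPM in uninvolved skin of mice 2237, 2275 and 2296 and at 270 and 335 CPM in mice 2392 and 2465, while its lesional levels of 120, 134 and 117 CPM and of 40.5 and 149 CPM overlapped. Thbs4, a thrombospondin of tendon and muscle, had the same arrangement, at 12, 44.3 and 12.1 CPM against 56.6 and 69.4 CPM in uninvolved skin and 16.9, 20.8 and 7.85 CPM against 8.79 and 16.3 CPM in lesions. Their interactions were -2.54 ± 0.71 and -1.97 ± 0.56. For Wisp2 (CCN5), a matricellular protein, and Islr (meflin), a fibroblast surface protein, the lesional differences were of opposite sign between the labels. Wisp2 had 0.86, 0.20 and 0.32 against -1.43 and -0.96, and Islr had 0.02, 0.32 and 0.22 against -0.77 and -1.08.

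Paqr7, a membrane progestin receptor, stood at 22.2, 53.3 and 38.2 CPM in uninvolved skin of the IL-17C+ mice and at 230 and 179 CPM in the IL-17C+KO mice. Its lesional levels were 24.0, 23.3 and 23.6 CPM against 53.7 and 16.1 CPM. The interaction of -2.19 ± 0.60 thus rests mainly on the uninvolved biopsies. Alox12e, an epidermal lipoxygenase, had lesional levels of 103, 166 and 16.8 CPM against 14.7 and 16.8 CPM. These levels overlapped, as mouse 2296 was as low as the IL-17C+KO mice. Akr1c14, a steroid-converting reductase, had lesional differences of -1.81, -1.88 and -0.94 against -2.88 and -4.64.

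Of the cell type and state lists, cell cycle genes had a uniform sign. All 40 had an interaction above 0, with a median of 0.90 (0.50 without mouse 2237, 0.41 without mouse 2465 and 1.51 without mouse 2392). Of them, 7 (17.5%) lay above in both IL-17C+KO mice, against 5.45% of all genes. The median lesional differences were -0.43, 1.29 and 0.64 in mice 2237, 2275 and 2296, against 0.97 and 2.02 in mice 2392 and 2465, so mouse 2275 lay between the IL-17C+KO mice. In lesions the summed levels were 1476, 1416 and 1580 CPM against 1401 and 1926 CPM and overlapped. In uninvolved skin they were 1955, 650 and 1060 CPM against 783 and 533 CPM. Aurka, a mitotic kinase, had an interaction of 1.31 ± 0.66 and Ccne1 (cyclin E1) of 1.70 ± 0.79. Genes of one proliferating compartment move together within a mouse, so 40 equal signs are not 40 observations.

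Keratinocyte activation genes had a median interaction of 1.03, which was -0.19 without mouse 2465, and 1 of 25 (4%) lay above. For all genes, the shares beside this and the following counts are 5.45% above and 5.03% below. Cornified envelope genes had 13 of 26 above 0 and 0 with separate labels, and of 21 basal and spinous keratinocyte genes 1 (Krt2) lay below. Fibroblast and collagen genes had a median of 0.39, with 1 of 26 (3.85%) above, the platelet-derived growth factor receptor Pdgfra. It had 0.79, 0.74 and 0.81 against 1.46 and 1.41. Among endothelial genes 2 of 18 (11.1%) lay above, the leukocyte adhesion molecules E-selectin (Sele) and P-selectin (Selp). Selp stood at 3.71, 7.57 and 8.14 CPM against 24.6 and 15.1 CPM in uninvolved skin and at 10.3, 14.0 and 26.7 CPM against 102 and 100.1 CPM in lesions, separate in both. Its interaction was 1.03 ± 0.44 and that of Sele 1.33 ± 0.55.

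T cell genes had a median interaction of -0.35, with 2 of 19 (10.5%) above, Ctla4 and Gzmb, and 0 below. The shares of all genes were 5.45% and 5.03%. Interferon response, adipocyte, sebaceous, melanocyte, hypoxia, mast cell and oxidative phosphorylation lists held 0 members with separate labels. By sign, 20 of 22 oxidative phosphorylation genes had an interaction below 0 and 2 above, with a median of -0.27 (-0.01 without mouse 2465). Of 16 adipocyte genes 15 were below 0 and 1 above, with a median of -0.48 (1.24 without mouse 2465). Dendritic and Langerhans cell genes had 3 of 18 (16.7%) above, among them Ccr7, and B and plasma cell genes had 1 of 7 (14.3%), beside 5.45% of all genes. Only 2 red blood cell genes were tested, and both overlapped. Immediate early genes had 1 of 20 (5.0%), Ier3, with 1.25 ± 0.64, which was 0.23 without mouse 2465 and 2.26 without mouse 2392. Hair follicle genes separated mice, not labels. Their median lesional difference was 8.62 in mouse 2275 and 6.10 in mouse 2465, and -0.41, -0.56 and -1.07 in mice 2237, 2296 and 2392. These are the same 2 mice whose lesional differences correlated best over all genes. In uninvolved skin the summed level of the list was 13242, 60.6 and 2596 CPM in mice 2237, 2275 and 2296, against 101 and 67.5 CPM in mice 2392 and 2465, and its part in the other values was not tested.

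**Figure D4:**
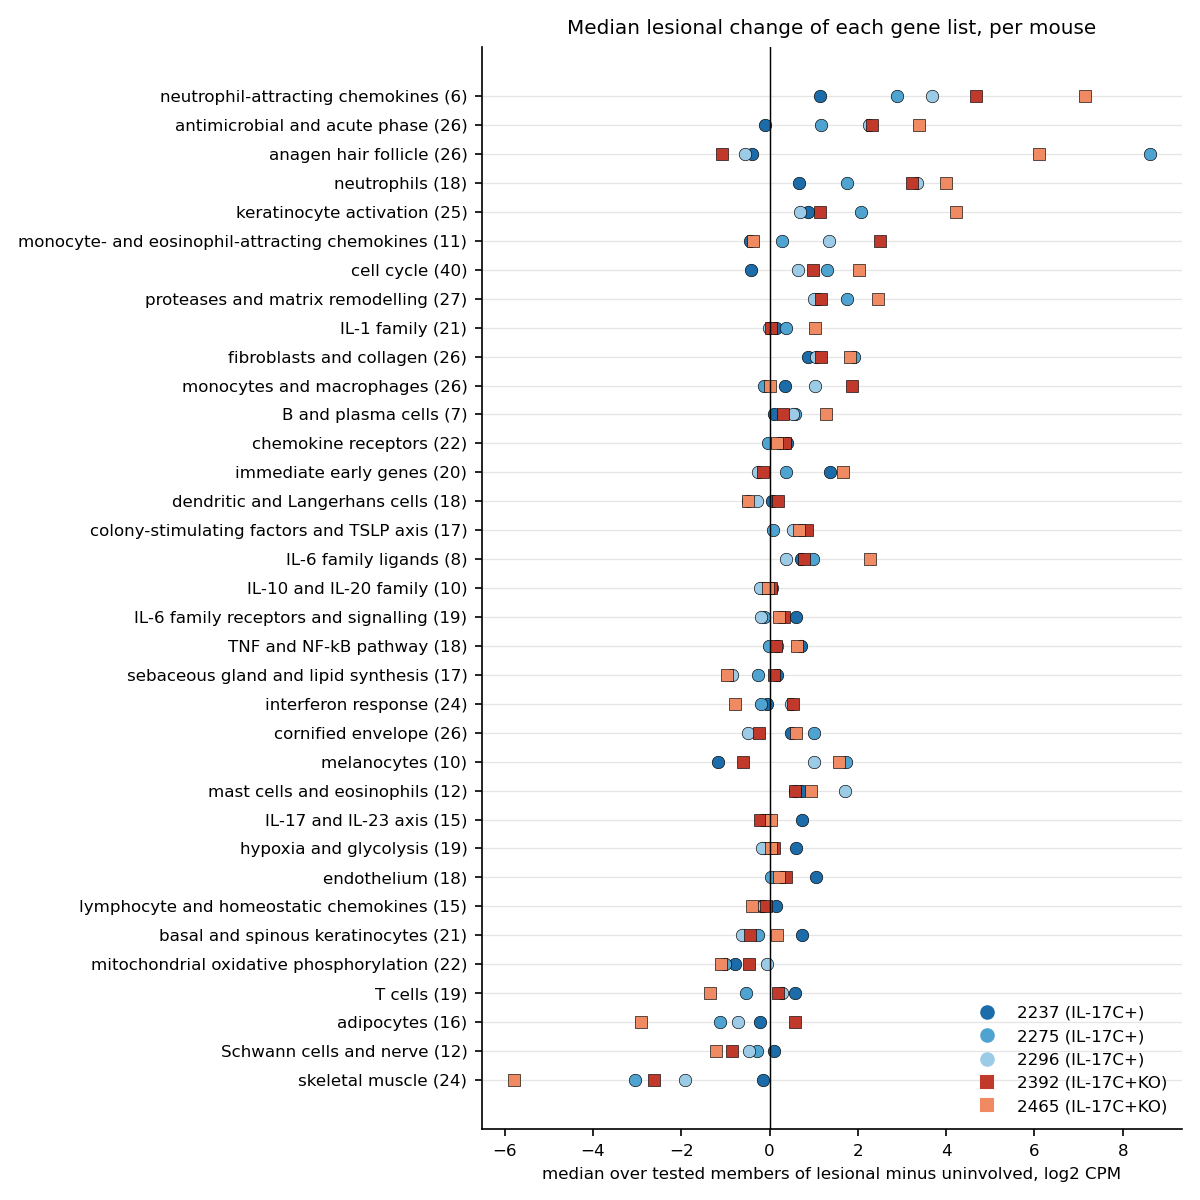
Median lesional minus uninvolved log2 CPM over the tested members of each list (x axis) in each mouse, circles for IL-17C+ and squares for IL-17C+KO, for lists with at least 5 tested members (number in brackets), ordered by median interaction. In neutrophil-attracting chemokines, antimicrobial genes and Schwann cells both squares lie beyond all circles on 1 side. For antimicrobial genes this is narrow, with mouse 2392 at 2.31 and mouse 2296 at 2.25. In anagen hair follicle mice 2275 and 2465 stand at 8.62 and 6.10 apart from the rest.

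**Figure D5:**
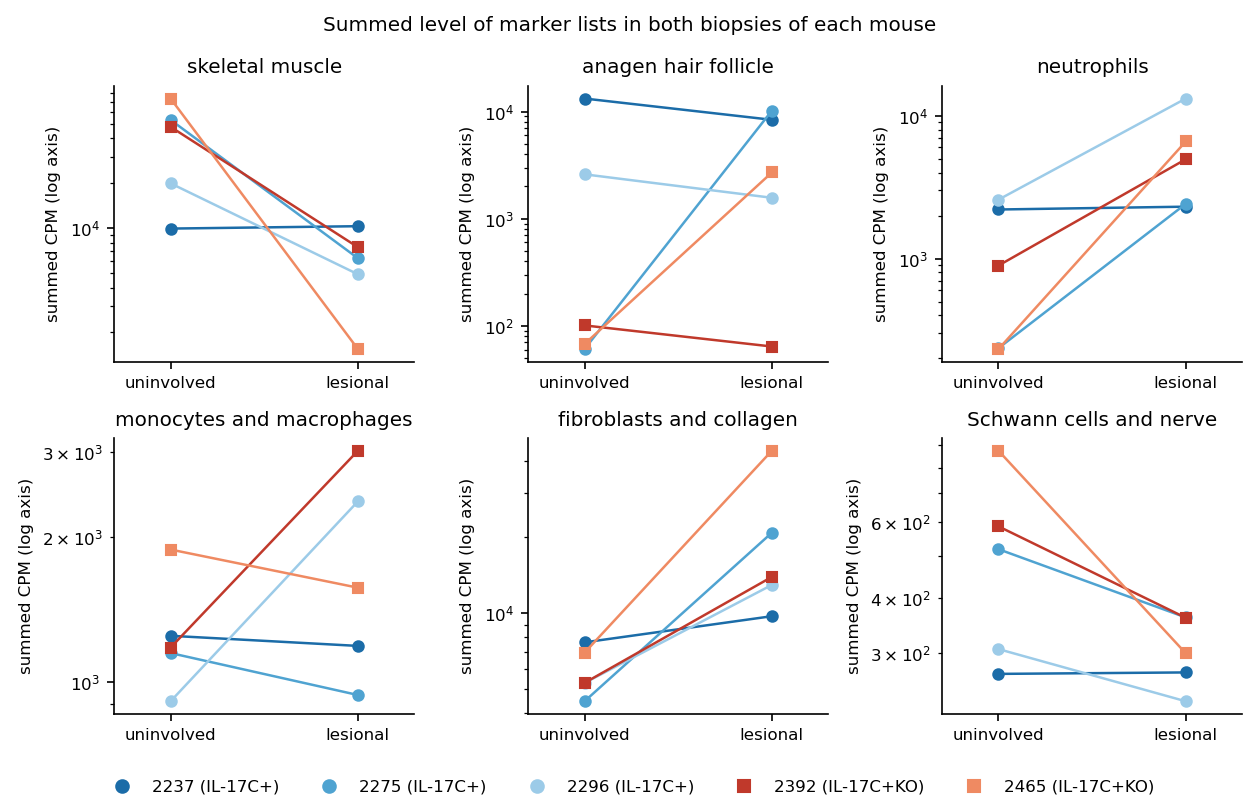
Summed CPM of 6 marker lists (log axis) in the uninvolved and the lesional biopsy of each mouse, circles for IL-17C+ and squares for IL-17C+KO. The muscle sum falls from 74013 to 1547 CPM in mouse 2465 and is 9941 and 10314 CPM in mouse 2237, and lesional neutrophil sums overlap between the labels.

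Opposite signs in all mice of the 2 labels were found for 102 genes (0.634%) positive under IL-17C+KO and 74 (0.46%) negative. Fam110c, a centrosome-associated protein, was among the first set. It stood at 9.16, 12.1 and 12.2 CPM in uninvolved skin of mice 2237, 2275 and 2296 and at 8.76 and 7.56 CPM in mice 2392 and 2465. Lesional skin held 7.16, 7.93 and 8.59 CPM against 18.9 and 11.9 CPM. The labels were thus separate in both kinds of skin, in opposite directions. The lesional differences were -0.35, -0.61 and -0.51 against 1.10 and 0.64, with an interaction of 1.37 ± 0.41 (unadjusted p = 0.0138, adjusted p = 1 by edgeR).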

How the data were processed

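RNA from 10 skin biopsies of 5 mice was sequenced on an Illumina Genome Analyzer IIx, per the labels. The submitters' processing notes name cutadapt 1.6, TopHat2 2.0.12, HTSeq, Cufflinks 2.2.1 and the mm10 build. For the annotation, the strand setting and multi-mapping reads, the sources used here give nothing. The authors deposited raw read counts per gene and, beside them, FPKM values per gene. Counts were the unit of every main test, and the deposited FPKM served only in an alternative. Library totals set the counting error given as a floor of 3 counts.

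The fit used edgeR 4.0.16 under R 4.3.3: filterByExpr, TMM scaling, and a robust quasi-likelihood fit with a term for each mouse, lesional skin and the interaction of lesional skin with the label. P-values were adjusted over all 16083 genes by the Benjamini-Hochberg method at a threshold of 0.05. Standard errors are the larger of the value from the F statistic and the value implied by p, and intervals are at 95%. For an interaction close to 0 both values are ratios of small numbers, so its interval is unstable and can be too wide. Differences within a mouse use log2 CPM with a prior count of 2. Biopsies are paired because the labels name the mouse of each. Deviations of the 2 biopsies of a mouse from their group means correlated at -0.122 to 0.0338. The procedure was tested on simulated data. Ratios with low counts carry exact binomial intervals for counting error only.

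Named genes were Il6 and Il17c, the 10 genes per direction with the smallest interaction p among established symbols with a mean of at least 2 CPM and labels that do not overlap, and up to 6 per direction with opposite signs. Added to these were the 6 per direction with the smallest p of the mean lesional effect, genes called by DESeq2 or limma-voom, and up to 4 members of each list by interaction p. The chemokines and IL-6 family ligands were described in full. Brinp3, Fn1, Klk14, Osm, Il12rb1 and Il17rb, where outside these rules, and Hoxc9, Mt2, Tceal5 and Bex4 were named after their values were seen. The 36 lists hold 695 genes, of which 675 are in the files. Some genes that these rules select are not reported here. Members, lists and rules were chosen with earlier results of these data known. Coordinates are from GENCODE M21 (GRCm38), in which 23281 of 24358 symbols name 1 gene. The alternatives were DESeq2 1.42.0, limma-voom (limma 3.58.1), RLE size factors, no filter, no mouse block, a fit without the robust option, limma on log2(FPKM + 1) and on log2(FPKM + 0.1), and leaving out each mouse.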

Additional observations from a re-analysis of the deposited data

Results flagged for a closer look

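For 12 named genes every mouse of one label had a positive lesional difference and every mouse of the other label a negative one. Tceal6, given under the other observations, also had this pattern and is not among the 12. The difference between the labels was tested as the interaction, and none passed the threshold (adjusted p = 1 for each by edgeR's quasi-likelihood test). Over all genes tested, 0.634% had this pattern with IL-17C+KO positive and 0.46% with IL-17C+KO negative.

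Positive under IL-17C+KO were Fam110c (interaction 1.37, unadjusted p = 0.0138), Rasd1 (1.3, unadjusted p = 0.0311), Mt1 (1.05, unadjusted p = 0.0564), Alb (1.11, unadjusted p = 0.0562) and Sfxn2 (0.91, unadjusted p = 0.0517). Rasd1 had lesional differences of -0.49, -1.44 and -0.61 in mice 2237, 2275 and 2296 and of 0.78 and 0.12 in mice 2392 and 2465. For Sfxn2 and Mt1 the difference in mouse 2465 was close to 0, at 0.08 and 0.10.

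Negative under IL-17C+KO were Wisp2 (-1.66, unadjusted p = 0.00549), Islr (-1.11, unadjusted p = 0.0174), Cadm4 (-1.11, unadjusted p = 0.0342), Irx1 (-0.90, unadjusted p = 0.037), Stbd1 (-1.0, unadjusted p = 0.0431), Scand1 (-0.86, unadjusted p = 0.0804) and Il12rb1 (-1.80, unadjusted p = 0.0889). Irx1, a homeobox factor, had 0.43, 0.58 and 0.34 against -0.35 and -0.54. Il12rb1, a receptor chain for IL-12 and IL-23, had a mean of 0.527 CPM.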

How the results depend on the processing

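The count of 0 genes called for the interaction was also found under each alternative but DESeq2, which called 6, and without each mouse in turn it was 0. Genes at an unadjusted p under 0.05 numbered 188, 356 with DESeq2, and 144 to 687 without 1 mouse, with 464 without mouse 2275 and 687 without mouse 2392. Genes called for the mean lesional effect numbered 21, against 2033 with DESeq2, 117 with limma-voom, 192 with no filter, 1 on log2(FPKM + 1) and 67 on log2(FPKM + 0.1). Leaving out 1 mouse gave 0 to 303, with 303 without mouse 2237, 1 without mouse 2296 or 2392, and 0 without mouse 2465. With no replicate block for the mouse, 966 genes were called for the mean effect, 178 had an unadjusted interaction p under 0.05, and Il6 turned to -0.064, Cxcl9 to 0.48 and Cxcl10 to 0.26. Leaving out mouse 2392 or 2465 leaves 1 mouse of its label, which is then assumed to vary like the others. Of 115 named genes, 93 kept their sign in each of the 8 other settings and 5 omissions that gave them a value, and leaving out 1 mouse moved 66 by over 1.5 times. Brinp3 turned to -0.85 with DESeq2, -0.52 with limma-voom and -0.40 on log2(FPKM + 0.1), and without mice it ran from -4.05 to 1.81, with -1.67 without mouse 2296. Without mouse 2237 the value was -0.39 for Ccl3, 0.06 for Ccl5, -0.42 for Il6 and -0.21 for Osm. Without mouse 2275 it was -0.01 for Ccl6 and 0.19 for Klk14, and without mouse 2296 it was 0.23 for Ccl24. Without mouse 2392 it was -1.34 for Ccl6, -0.33 for Ccl8, -0.43 for Ccl9 and 0.35 for Ebi3. Without mouse 2465 it was 0.68 for Ccl11, 0.93 for Ccl24, 0.58 for Ccl5, -0.91 for Il17c, -0.21 for Il6 and -0.04 for Osm. Over the 5 omissions the opposite ends were -0.94 for Ccl11, -1.07 for Ccl24, 1.78 for Ccl3, -0.90 for Ccl5, 2.39 for Ccl6, 2.7 for Ccl8, 2.38 for Ccl9, -0.75 for Ebi3, 3.13 for Il17c, 0.73 for Il6, -0.83 for Klk14 and 0.66 for Osm. The cause of these changes was not tested. Ccl19 is listed at 0 FPKM in each library and has no value there, and Cntf has none without mouse 2237. Among lymphocyte chemokines, omissions gave Ccl17 -0.46 to 1.43, with -0.15 without mouse 2296, Ccl20 -0.39 to 4.20, Ccl22 -0.39 to 1.14, with -0.077 without mouse 2465, and Ccl25 -0.71 to 0.36, with 0.13 without mouse 2296. They gave Cxcl9 -2.22 to 1.38, with 0.19 without mouse 2237, Cxcl10 -1.04 to 0.35, with 0.16 without mouse 2296, and Cxcl13 -2.64 to 2.97, with -0.18 without mouse 2275. For Cxcl16 they ran from -0.54 to 0.35, with 0.0063 without mouse 2237, and for Cx3cl1 from -1.05 to 0.043. Of the 36 lists, 9 kept the sign of their median in every setting, among them neutrophil-attracting chemokines (2.00 to 3.69), antimicrobial genes, cell cycle, skeletal muscle (-3.96 to -0.98) and Schwann cells. The median of the hair follicle list was -1.13, -1.37 and -2.08 without mouse 2237, 2296 and 2465. For genes above 2 CPM the median half-width of the 95% interval was 1.21 log2 units, and the parts of depth and of mouse number in it were not separated.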

Other observations

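The values here were chosen after they were seen. Of 11 genes of the Bex and Tceal families on the X chromosome, 10 were tested, and the lesional differences of both IL-17C+KO mice lay below those of all IL-17C+ mice for Bex1, Bex4, Tceal5, Tceal6 and Tceal7. Over all genes tested the share below was 5.03%. Bex4 had a mean of only 0.48 CPM and an interaction interval from -5.19 to 1.12. Its lesional differences in mice 2275 and 2392 were close, at -1.38 and -1.52. The spans of Bex1 and Tceal7 overlap and the strand setting is not stated, so these genes are not separate observations. For Tceal6 the signs were opposite, with 0.37, 0.30 and 0.21 in the IL-17C+ mice and -2.26 and -0.36 in the IL-17C+KO mice, at a mean of 0.93 CPM. Tceal5 had lesional differences of -0.14, -1.56 and -0.93 in mice 2237, 2275 and 2296 and of -3.30 and -2.26 in mice 2392 and 2465, with an interaction of -1.97 ± 0.71. Bex2, Bex3, Tceal1, Tceal3 and Tceal8 overlapped between the labels, and of these Bex3 and Tceal8 had positive interactions, 0.44 and 0.50.

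Homeobox genes of the HOX clusters, which keep positional identity in skin fibroblasts, had lesional differences below 0 in 5 of 5 mice for 9 of 30 tested members and above 0 for 1. Over all genes tested 9.73% were below 0 in 5 of 5 mice. Sizes differed between members. Mean lesional changes were -4.04 for Hoxa9, -3.32 for Hoxb9 and -3.13 for Hoxa7, which missed the threshold. For Hoxb2, Hoxb3 and Hoxc4 they were -0.01, 0.17 and -0.08. The part of biopsy position in these values was not tested. Hoxc9 fell in lesions on average (-3.39 ± 0.36, adjusted p = 0.0438 by edgeR's quasi-likelihood test), with -2.39, -2.70 and -1.84 in the IL-17C+ mice and -3.53 and -4.29 in the IL-17C+KO mice.

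The metallothioneins Mt1 and Mt2, zinc-binding proteins of the acute phase, had positive interactions that missed the threshold, while Mt3 and Mt4 had -0.86 and -1.07 with overlapping labels. Mt2 had lesional differences of -0.33, -0.44 and 0.05 in the IL-17C+ mice and of 1.07 and 0.55 in the IL-17C+KO mice, with an interaction of 1.05 ± 0.40 (unadjusted p = 0.0363, adjusted p = 1 by edgeR). The zinc importer Slc39a14 had the same direction, at 1.84 ± 0.46. These genes are close copies, and the handling of shared reads is not known from the labels.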
